A study of Rattus norvegicus with 71 samples.

Results

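Axon guidance ligands and receptors were followed in the PND2 rat brain after gestational exposure to maternal autoantibodies (MARA-ABs). The set was 45 symbols fixed by name: ephrins and their Eph receptors, semaphorins and their neuropilin and plexin receptors, Slits and Robos, and netrin-1 with Dcc and the Unc5 receptors. Of these, 42 had a row in the count table of 17494 genes, and all 42 passed the filter on low counts in every comparison. Expression of Efna3, Epha6 and Plxna1 was not analysed here. The lowest count of any member in any animal was 63, for Efna1, so no member was limited by absence of reads.

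Guidance cues steer the growing axon by attracting or repelling its tip, the growth cone. Ephrins are bound to the membrane and signal on contact through Eph receptor tyrosine kinases, whereas class 3 semaphorins, Slits and netrin-1 are secreted. Semaphorin 3A binds neuropilin-1, plexin-A receptors carry the signal across the membrane, and the collapsin response mediator proteins (CRMPs) act on microtubules inside the growth cone. CRMP1 and CRMP2, the latter made from Dpysl2, are also antigens of the autoantibodies studied, so both genes are given beside each comparison.

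Sprague-Dawley dams were immunised with peptides of 1 of 4 antigen combinations in Freund's adjuvant, and control dams received adjuvant with saline. RNA came from a coronal slice through the hippocampal formation with adjoining cortex and deeper tissue, taken from wild-type pups of both sexes on postnatal day 2. There were 24 control, 8 CRMP1+CRMP2, 25 LDHA/B+CRMP1+STIP1, 6 CRMP1+GDA and 8 STIP1+NSE animals from 27 litters (littermates share a dam and her exposure). Total counts ran from 24880182 to 36234952 per animal. Batch 1 comprised 12 control and 16 LDHA/B+CRMP1+STIP1 animals. In batch 2 were 12 controls, 9 pups of the LDHA/B+CRMP1+STIP1 pattern and every animal of the remaining patterns.

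The slices were not alike in tissue. Summed thalamus markers (7 of 8 listed genes in the table) ran from 88.6 to 220 CPM (counts scaled to library size) in the batch 1 controls and from 412 to 1123 CPM in the batch 2 controls. Choroid plexus markers (8 genes) ran from 10.3 to 117 and from 148 to 2913 CPM, and striatal markers (7 genes) from 161 to 661 and from 98.2 to 223 CPM, in the same order. The 6 hippocampal markers were at 145 to 227 CPM in batch 1 controls and 195 to 268 CPM in batch 2 controls. Whether the slices of both batches held the same part of the labelled region was not tested. Thalamus markers were under 400 CPM in some batch 2 slices: 2 of 8 from CRMP1+CRMP2, 1 of 8 from STIP1+NSE and 3 of 9 from LDHA/B+CRMP1+STIP1, against 0 of 12 from controls. In batch 2, 5 slices, none of them a control, had over 10 CPM of summed pineal markers, with the highest at 249 CPM. In such bulk tissue, fewer cells of a type and less RNA per cell cannot be told apart.

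All 4 families were transcribed in the control slices. Levels here are reads scaled to exon length and library size (RPKM), which allow comparison between genes. Among the ephrins, Efnb3, a transmembrane ephrin, was the most abundant member at 122 ± 19.01 RPKM (SD, n = 24), followed by Efnb2 at 52.4 ± 14.4. The glycosylphosphatidylinositol-anchored ephrins were lower, from Efna1 at 3.09 ± 0.70 through Efna4 and Efna5 to Efna2 at 24.2 ± 3.80. Efnb1 stood between them at 19 ± 1.97.

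The Eph receptors spanned a narrower range. Epha4, which binds ephrins of both classes, and Ephb2 were highest at 42.9 ± 9.79 and 40.1 ± 5.12 RPKM. Epha5, Ephb1 and Epha7 lay between 28.7 and 32.4 RPKM, Epha3 at 13.6 ± 1.81, and Ephb3 was lowest at 6.08 ± 1.60. The means of Epha5, Ephb1 and Epha7 each lay within 1 SD of the neighbouring mean, which describes spread between animals. Their order was not tested.

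Among the semaphorins, Sema7a, a membrane-anchored member, reached 61.9 ± 20.3 RPKM. The secreted Sema3c and Sema3f were at 25.6 ± 4.26 and 17.8 ± 2.49, and Sema3a, the classical collapsing cue, at 10.3 ± 1.96. Sema3e and Sema3d were the 2 lowest semaphorins at 2.65 ± 0.91 and 2.18 ± 0.49. Sema6a and Sema6d, which are transmembrane, were at 25.1 ± 2.59 and 19.8 ± 2.59, and Sema4d and Sema5a at 10.8 ± 1.93 and 7.47 ± 1.93.

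Of the receptors for semaphorins, Plxna3 was highest at 43.98 ± 10.3 RPKM and Plxnb1, a receptor for Sema4d, lowest at 13.0 ± 1.82. Plxna2, Plxnd1, Nrp2, Plxna4 and Nrp1 lay between them, from 33.2 down to 19.3 RPKM. The spread was wide for Nrp2 (24.5 ± 11.2) and Nrp1 (19.3 ± 7.38). The Nrp1 mean pools 2 control batches that did not overlap, so its place in this order depends on the batch. Robo1 and Robo2, the Slit receptors, were at 43.6 ± 8.93 and 36.9 ± 8.35, and of their ligands Slit1 was at 25.1 ± 3.47 while Slit2 and Slit3 were at 4.70 ± 1.55 and 2.95 ± 1.12. Unc5a, a repulsive netrin receptor, was at 31.5 ± 6.18, above Unc5d at 10.7 ± 2.44 and Dcc, which mediates attraction to netrin-1, at 8.50 ± 1.74. Unc5c and Unc5b were lower at 5.56 ± 0.83 and 3.47 ± 0.64. Ntn1 itself was at 11.2 ± 7.39, with the largest spread relative to its mean of any member.

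**Figure D1:**
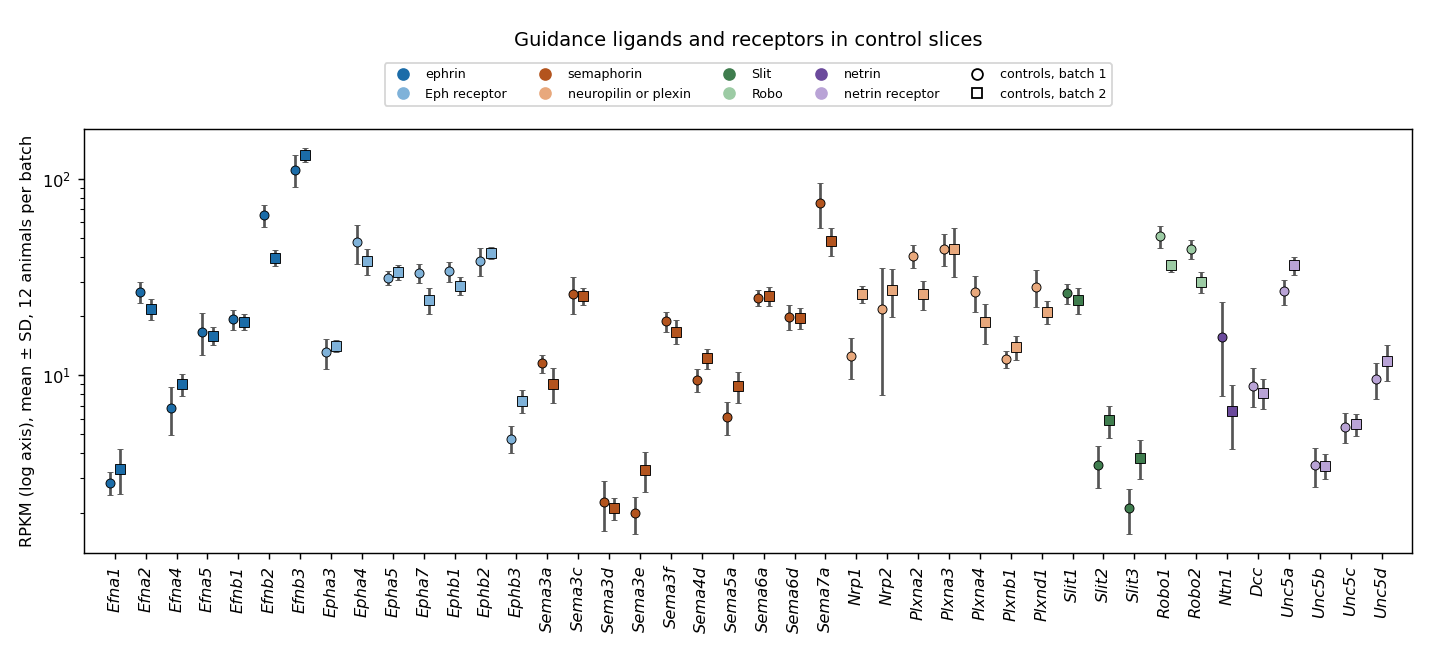
RPKM on a log axis of the 42 members in control slices of batch 1 (circles) and batch 2 (squares); symbols are means, bars are SD over 12 animals, and colours are families. Efnb3 is the highest member, and Nrp1, Slit2 and Slit3 are higher while Ntn1, Efnb2 and Plxna2 are lower in batch 2.

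The control batches were compared first, since the litters of both were unexposed. In this comparison 26 of 42 members (61.9%) passed an adjusted p of 0.1 in edgeR's quasi-likelihood test, beside 41.6% of 12089 genes tested. Of these, 12 were higher in batch 2 (background 21.4%) and 14 were lower (background 20.2%). The excess over the background was not tested.

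Nrp1, the semaphorin 3A and VEGF co-receptor, showed one of the clearest differences. It ran from 9.02 to 19.3 RPKM with a median of 12.6 in the 12 batch 1 controls, and from 22.4 to 31.5 with a median of 25.8 in the 12 of batch 2. The ranges did not touch, and the log2 fold change was 1.05 ± 0.10 (SE, adjusted p = 1.59e-08). Efnb2 and Plxna2 were the other members with no overlap, both lower in batch 2. Efnb2 fell from a range of 48.0 to 75.1 RPKM to one of 34.8 to 46.5, a log2 fold change of −0.71 ± 0.07 (adjusted p = 1.13e-08). Plxna2 fell from a range of 35.5 to 51.5 RPKM to one of 20.1 to 34.3, by −0.65 ± 0.08 on the log2 scale (adjusted p = 4.34e-07). Across all genes tested, 1.64% had control batches that did not overlap.

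Of the Slits, 2 rose in batch 2 and both Robos fell. Slit2 was 0.76 ± 0.11 and Slit3 0.86 ± 0.13 higher on the log2 scale in batch 2 (adjusted p = 7.16e-06 and 1.36e-05), while Robo2 and Robo1 were −0.55 ± 0.06 and −0.48 ± 0.06 (adjusted p = 2.39e-07 and 6.05e-07). With the thalamus marker score as a covariate both Slits were lower in batch 2, at −0.31 and −0.40. Slit1 did not pass the test (−0.11 ± 0.08, adjusted p = 0.273). Slit2 ran from 2.61 to 5.12 RPKM in batch 1 and from 3.94 to 7.83 in batch 2, so these ranges overlapped in part.

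Ntn1 had the largest fold of any member, −1.27 ± 0.27 (adjusted p = 0.000819). Its level ran from 4.97 to 27 RPKM with a median of 16.5 in batch 1 and from 3.54 to 11 with a median of 5.90 in batch 2. The netrin receptors Unc5a (0.44 ± 0.08, adjusted p = 5.29e-05) and Unc5d (0.30 ± 0.12, adjusted p = 0.0555) rose, and Dcc, Unc5b and Unc5c did not pass.

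Among the semaphorins Sema3e (0.75 ± 0.12), Sema5a (0.53 ± 0.11) and Sema4d (0.37 ± 0.07) were higher in batch 2, and Sema7a (−0.64 ± 0.13), Sema3a (−0.34 ± 0.09) and Sema3f (−0.17 ± 0.07) lower, with adjusted p from 2.7e-05 to 0.0692. Plxna4 (−0.51 ± 0.11) and Plxnd1 (−0.42 ± 0.10) were lower and Plxnb1 (0.20 ± 0.06) higher. Of the Eph receptors Ephb3 rose by 0.65 ± 0.08, and Epha7 (−0.46 ± 0.07), Epha4 (−0.31 ± 0.11) and Ephb1 (−0.24 ± 0.07) fell. Of the ephrins besides Efnb2, Efna4 (0.41 ± 0.12) and Efnb3 (0.26 ± 0.07) rose and Efna2 (−0.29 ± 0.07) fell.

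**Figure D2:**
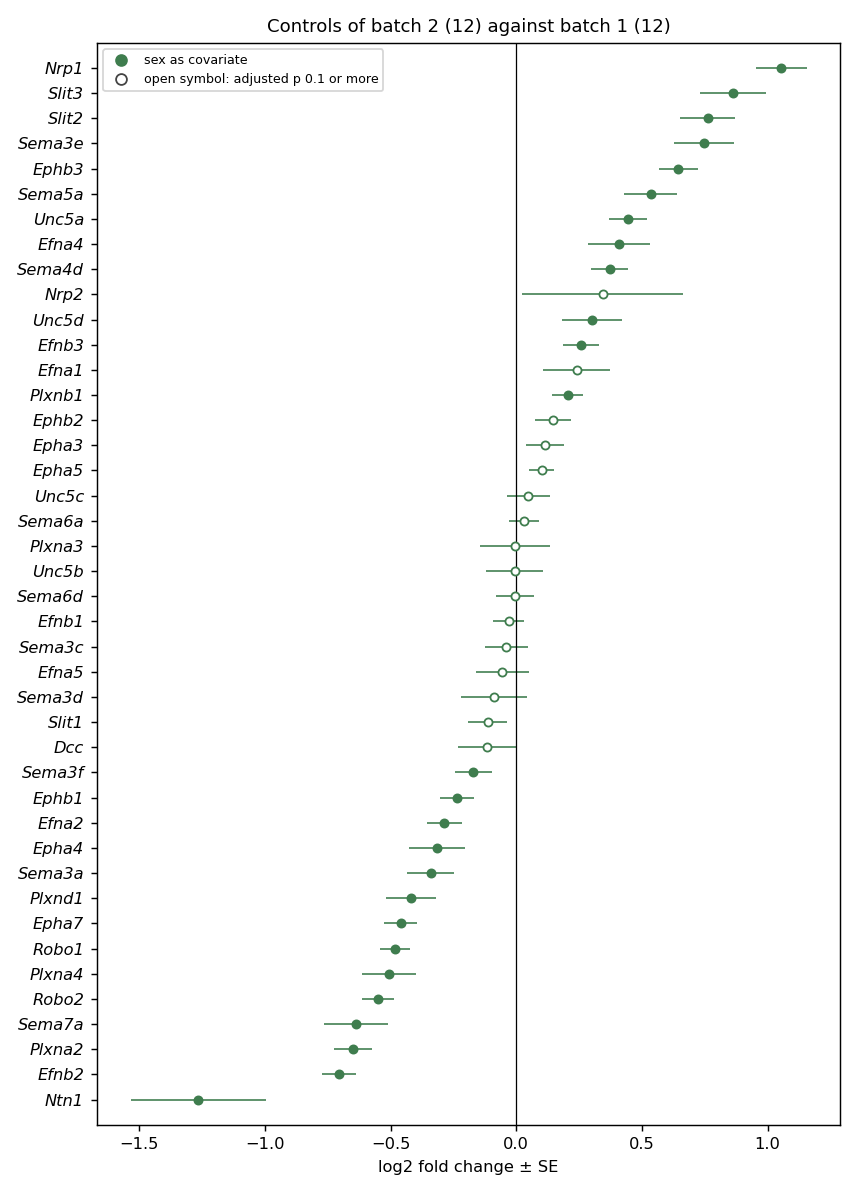
Log2 fold change with its SE for each of the 42 members between the 12 control slices of batch 2 and the 12 of batch 1; filled symbols have an adjusted p under 0.1. Nrp1 and Slit3 lie farthest to the right and Ntn1 farthest to the left.

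Other guidance genes differed between the control batches as well. Of 29 further guidance ligands and receptors tested, 9 rose and 10 fell in batch 2 (65.5% in all), and of 42 genes that transmit guidance signals 5 rose and 16 fell (50%), beside the 41.6% of all genes. Ntng1, a netrin-G, rose by 2.57 ± 0.17 on the log2 scale (adjusted p = 6.97e-11), and Epha1 by 2.21 ± 0.28 (adjusted p = 9.97e-07). Ngef, an ephexin that acts downstream of EphA receptors, fell by 1.13 on the log2 scale (SE 0.10, adjusted p = 9.42e-09). The Rac GTPase-activating protein Chn2 (−0.59 ± 0.06) and the kinase Abl1 (−0.34 ± 0.03) also fell. Crmp1 was −0.16 ± 0.05 (adjusted p = 0.0106) and Dpysl2 0.04 ± 0.05 (adjusted p = 0.633).

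Thalamus and choroid plexus markers separated the same 24 slices, with no overlap in either list. With the thalamus marker score as a covariate 15 members (35.7%) passed, beside 10.4% of genes, and Slit2, Slit3, Ephb3 and Sema5a turned to lower and Sema7a and Plxna4 to higher in batch 2. As batch and tissue content did not overlap, they cannot be told apart. With litter as a random effect 22 members (52.4%) passed, beside 22.1% of genes. With counts summed over the 7 control litters 17 (40.5%) passed, beside 15.2% of genes.

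The first question of the study was whether exposed pups as one group (n = 47) differed from controls (n = 24). No guidance gene passed the test after adjustment, beside 0.0321% of 12477 genes. At an unadjusted p under 0.05 there were 5 members (11.9%), beside 10.3% of genes, and all 5 were higher. DESeq2 called 0 members as well, beside 0.136% of genes. The smallest p in edgeR belonged to Efna2 at 0.14 ± 0.04 (unadjusted p = 0.000558, adjusted p = 0.227). The paper names Efna2 among the genes that passed an FDR of 0.1 over its models of this contrast. It describes that change as a response to the LDHA/B+CRMP1+STIP1 pattern. In the fits made here Efna2 did not pass for this contrast. In batch 2 it was above the control median in 8 of 9 LDHA/B+CRMP1+STIP1, 7 of 8 CRMP1+CRMP2, 5 of 6 CRMP1+GDA and 6 of 8 STIP1+NSE animals. No difference in Efna2 among the 4 patterns was found at an unadjusted p under 0.05 in edgeR. After Efna2 the smallest p belonged to Epha3 (0.17 ± 0.06), Plxna2 (0.16 ± 0.06), Efnb1 (0.09 ± 0.04) and Plxna4 (0.15 ± 0.07). Over the whole set 32 of 42 estimates were above 0, with a median of 0.049 beside 0.003 over all genes. With the first 7 principal components in place of the surrogate variable 26 of 42 were above 0, with a median of 0.014. Crmp1 (0.01 ± 0.02) and Dpysl2 (0.00 ± 0.04) were near 0.

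Among the comparisons of an exposure with controls, CRMP1+CRMP2 was the one in which edgeR called members, at a share near that of all genes. In all, 5 members rose and 1 fell at an adjusted p under 0.1 in edgeR's quasi-likelihood test with the first surrogate variable, 14.3% of 42 beside 11.4% of 12691 genes. With litter as a random effect, at a mean within-litter correlation of 0.346, 0 members and 0.26% of genes passed, with adjusted p of 0.104 for Slit2 and 0.232 to 0.27 for the other 5, and with counts summed per litter 0 members passed beside 0% of genes. The 5 that rose compare with a background of 4.83% for higher genes and the 1 that fell with 6.56% for lower genes. At an unadjusted p under 0.05 there were 11 members beside 24.4% of genes. In total 30 of 42 estimates were above 0, with a median of 0.11 beside 0.01 over all genes.

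Slit2, the repellent that acts through Robo receptors, had the smallest p. It ran from 5.09 to 10.7 RPKM with a median of 6.95 in the CRMP1+CRMP2 animals, from 3.94 to 7.83 with a median of 6.10 in batch 2 controls, and from 2.61 to 5.12 with a median of 3.32 in batch 1 controls. Of the 8 exposed animals, 5 were above the median of the batch 2 controls and 2 were above their highest. The log2 fold change was 0.36 ± 0.08 (adjusted p = 0.0116) with all controls and 0.24 ± 0.13 (adjusted p = 0.309) within batch 2.

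Epha3 and its ligand Efna5 both rose. Epha3 ran from 11.7 to 23.2 RPKM with a median of 15.9 in exposed animals and from 12.1 to 15.5 with a median of 14.1 in batch 2 controls, and the log2 fold change was 0.29 ± 0.09 (adjusted p = 0.0657). Efna5 ran from 12.4 to 31.7 with a median of 17.3, against 13.7 to 18.6 with a median of 15.8, and rose by 0.32 ± 0.11 (adjusted p = 0.0909). Both fold changes were against all 24 controls. In both genes the groups overlapped over most of the control range, and the highest exposed animals stood above every batch 2 control.

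Plxna4 and the secreted Sema3f rose as well. Plxna4 ran from 17.6 to 45.2 RPKM with a median of 23.2 against 13.5 to 29.9 with a median of 18.9, a log2 fold change of 0.34 ± 0.11 (adjusted p = 0.0699). Sema3f ran from 15.1 to 26.3 with a median of 17.8 against 14.6 to 23.5 with a median of 16.3, a change of 0.21 ± 0.08 (adjusted p = 0.0991). Efnb3 was the member that fell, by −0.18 ± 0.06 (adjusted p = 0.0755). It ran from 88.3 to 134 RPKM in exposed animals and from 109 to 148 in batch 2 controls. For Efnb3, 1 of 8 exposed animals was above the median of the batch 2 controls. The fold changes of Plxna4, Sema3f and Efnb3 were against all 24 controls, while the ranges compared are of batch 2.

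The extreme values came from few slices. A male of litter 9_6 held the highest Epha3 and Plxna4, and a female of litter 9_1 the highest Efna5 and Sema3f and the lowest Efnb3. These were the 2 CRMP1+CRMP2 slices under 400 CPM of thalamus markers, at 267 and 119 CPM, and the female also had the highest choroid plexus (3399 CPM) and pineal (249 CPM) markers. Without batch 2 slices under that limit 0 of the 42 members and 5 genes in all passed, with Slit2 at 0.26 ± 0.10, Plxna4 at 0.26 ± 0.11, Epha3 at 0.16 ± 0.10, Efna5 at 0.10 ± 0.12, Sema3f at 0.07 ± 0.08 and Efnb3 at −0.11 ± 0.07. Without litter 9_6 none of the members passed either.

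**Figure D3:**
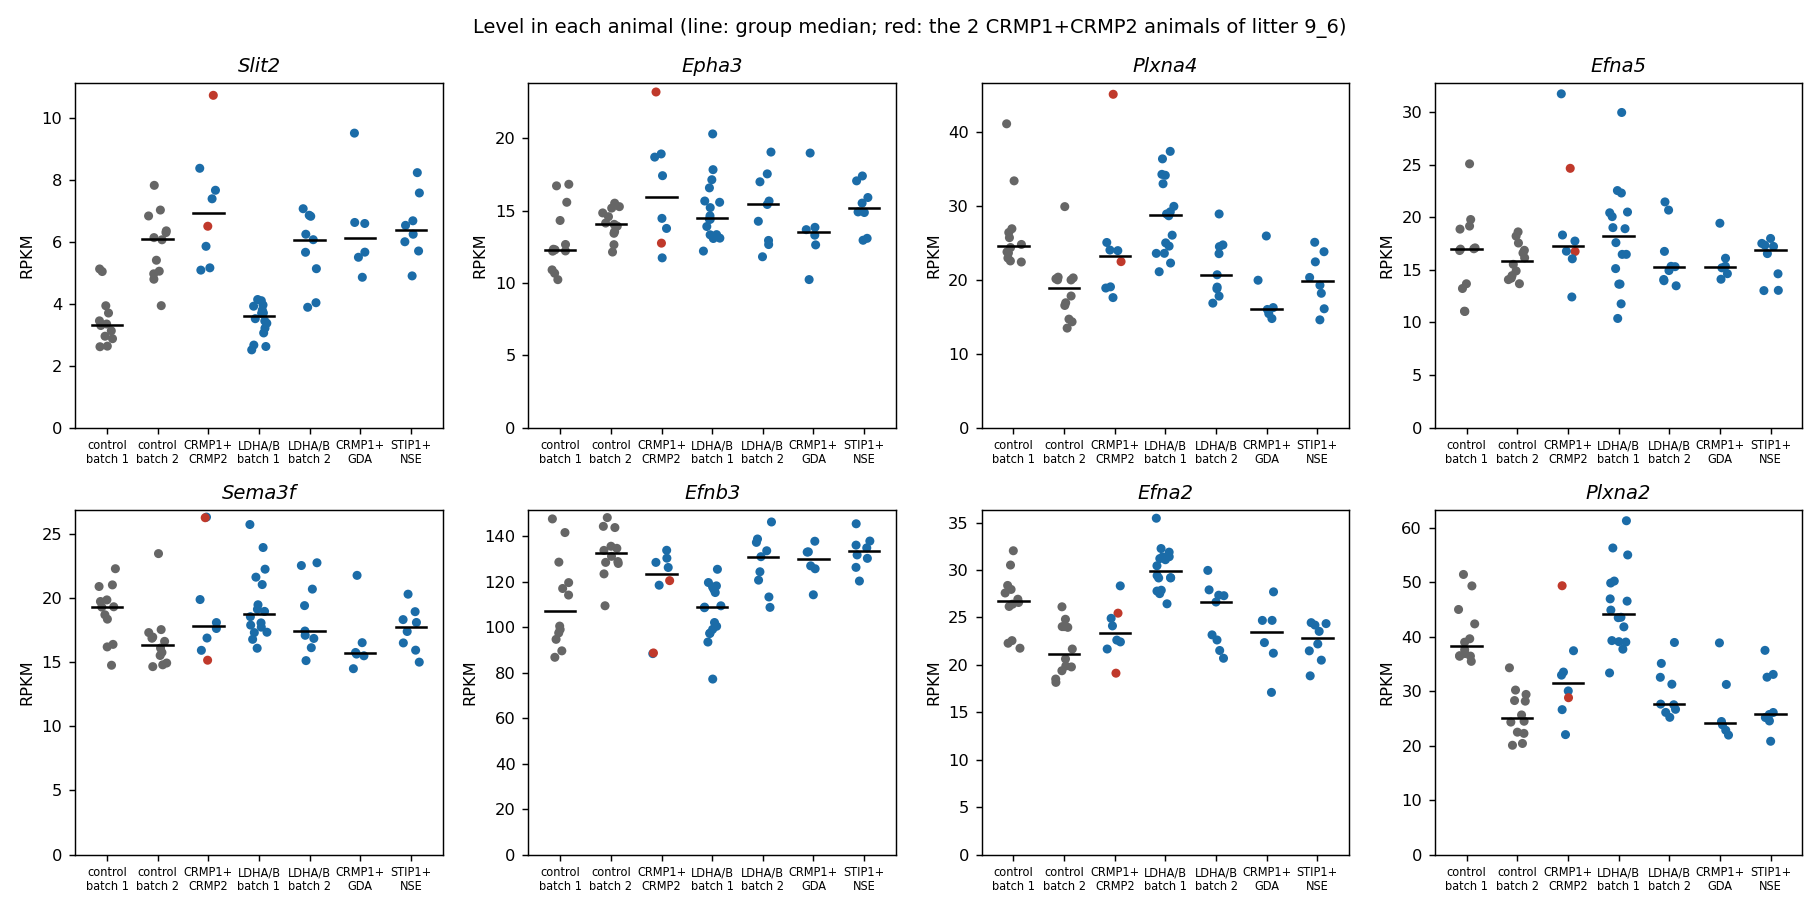
RPKM of 8 members in every animal, by exposure and batch, with a line at each group median; LDHA/B stands for LDHA/B+CRMP1+STIP1, and red points are the 2 males of CRMP1+CRMP2 litter 9_6. In Plxna4 1 of these males lies at 45.2 RPKM, far above the rest of its group, and Efna2 and Plxna2 medians in LDHA/B+CRMP1+STIP1 lie above those of controls in both batches.

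Within batch 2 alone, with sex as covariate, 1 member passed, beside 1.01% of genes. It was Efnb2, the ligand of EphB receptors, at 0.28 ± 0.07 (adjusted p = 0.0978), and it ran from 41 to 58.6 RPKM in exposed animals against 34.8 to 46.5 in the controls of that batch. The same gene was at 0.09 ± 0.09 (adjusted p = 0.549) against all 24 controls. Estimates within batch 2 kept their sign for all 6 members called above, from −0.19 ± 0.07 for Efnb3 to 0.43 ± 0.16 for Plxna4. Both fits used the same exposed animals, and the batch 2 controls were part of the 24, so this was not an independent check.

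**Figure D4:**
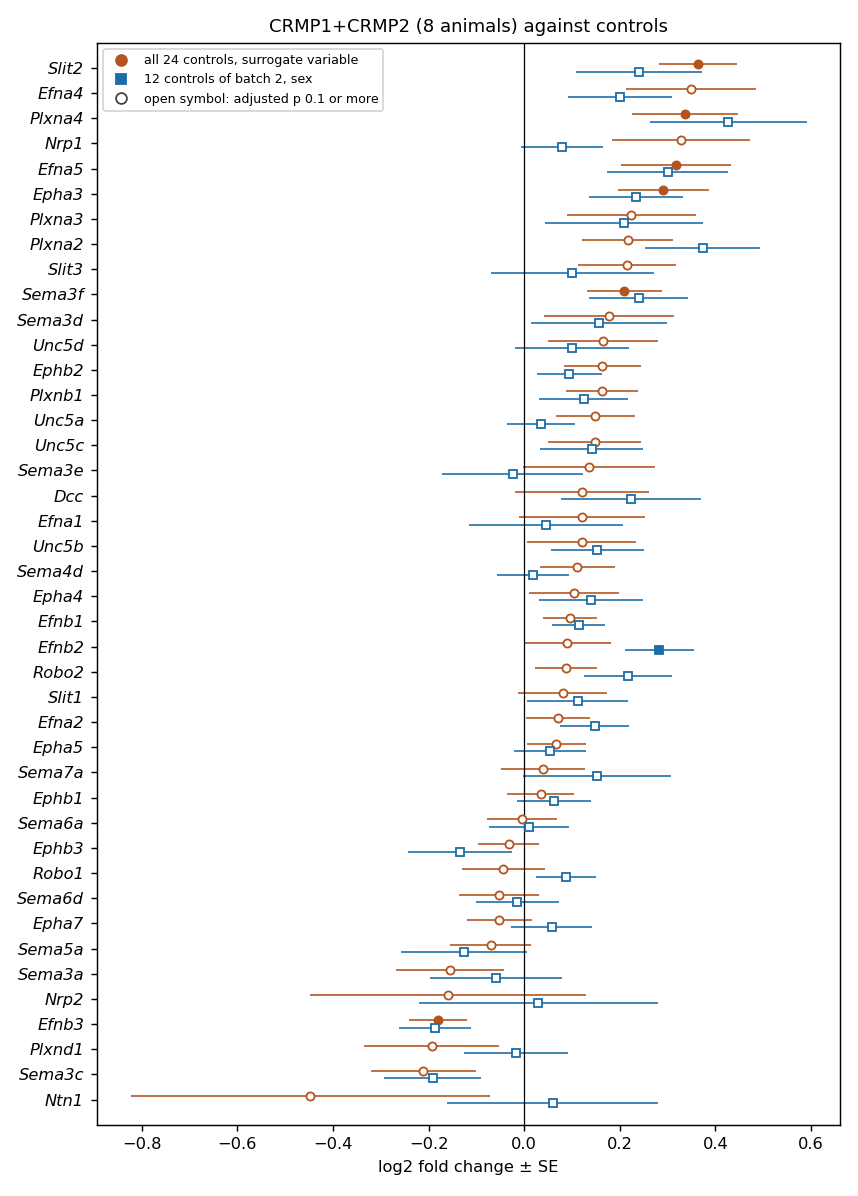
Log2 fold change with its SE for each of the 42 members in CRMP1+CRMP2 animals, against all 24 controls (circles) and against the 12 controls of batch 2 (squares); filled symbols have an adjusted p under 0.1. The filled symbols are 6 circles and 1 square, for Efnb2.

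Downstream genes of the pathway included calls in both directions, all from the fit that treats each pup as a replicate. With litter as a random effect 33 of 12691 genes in all passed, and with counts summed per litter 0 passed. Without batch 2 slices low in thalamus markers 5 genes in all passed. Of 42 transducers 4 rose and 4 fell (19%), and of 29 further ligands and receptors 3 rose and 1 fell (13.8%), beside the 11.4% of all genes. Cntn2, an axonal adhesion molecule, rose by 0.41 ± 0.12 (adjusted p = 0.0397) and Ntng2 by 0.36 ± 0.11 (adjusted p = 0.0489). Ntn4, a netrin, was at −0.33 ± 0.10, and Gap43, a growth cone protein, and Cfl1, the actin-severing cofilin, were both at −0.18, with SE of 0.05 and 0.06. Dpysl2, which encodes the CRMP2 antigen, fell by −0.15 ± 0.05 against all 24 controls (adjusted p = 0.0871). It ran from 500.0 to 646 RPKM in exposed animals and from 591 to 711 in batch 2 controls. Crmp1 was at −0.04 ± 0.04 (adjusted p = 0.540). The scaling moved the balance over all genes: 613 of 1445 calls were higher with TMM factors, 897 of 1364 without factors and 802 of 1378 with upper-quartile factors.

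LDHA/B+CRMP1+STIP1 was the pattern with animals in both batches. Against all 24 controls no member passed in edgeR, beside 0.0157% of 12700 genes, and 6 members (5 higher) had an unadjusted p under 0.05, beside 7.17% of genes. DESeq2 called 1 member (2.38%), Efna2, at an adjusted p of 0.0768, beside 0.118% of genes in that fit. In edgeR Efna2, an ephrin-A expressed in developing midbrain and forebrain, was at 0.17 ± 0.04 (unadjusted p = 0.000207, adjusted p = 0.149). Plxna2 (0.15 ± 0.06), Epha3 (0.14 ± 0.06), Efnb1 (0.11 ± 0.04), Ephb3 (−0.12 ± 0.06) and Sema3a (0.13 ± 0.06) followed. Crmp1 (0.00 ± 0.03) and Dpysl2 (0.04 ± 0.04) did not pass.

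The batches shared no animals, so each gave its own estimate. In batch 1, 0 members passed beside 0.0161% of genes, with 3 under an unadjusted p of 0.05 beside 5.45%. In batch 2, 0 members passed beside 0% of genes, with 6 under an unadjusted p of 0.05 beside 5.62%. DESeq2 called 0 members in both. Efna2 and Plxna2, 2 of the members, were under 0.05 in both with the same sign, as were 75 of 12317 genes. With litter as a random effect Efna2 was at an unadjusted p of 0.00791 in batch 1 and 0.0421 in batch 2, and Plxna2 at 0.104 and 0.0381 (limma), so Plxna2 was then under 0.05 in batch 2 alone.

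Efna2 ran from 26.4 to 35.5 RPKM with a median of 29.9 in exposed animals of batch 1 and from 21.7 to 32.03 with a median of 26.7 in their controls. Of the 16 exposed animals, 15 were above the control median. In batch 2 it ran from 20.7 to 29.96 with a median of 26.6 against 18.1 to 26.1 with a median of 21.2, and 8 of 9 were above the control median. The log2 fold changes were 0.18 ± 0.06 (unadjusted p = 0.0028) and 0.21 ± 0.08 (unadjusted p = 0.011) in edgeR, and the ranges overlapped in both batches.

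Plxna2 ran from 33.4 to 61.3 RPKM against 35.5 to 51.5 in batch 1 and from 25.2 to 39.0 against 20.1 to 34.3 in batch 2. The log2 fold changes were 0.17 ± 0.08 and 0.21 ± 0.09. Above the control median of their batch were 14 of 16 and 9 of 9 exposed animals. In batch 2 the members with the smallest p besides these were Efnb2 (0.27 ± 0.10), Efna4 (0.26 ± 0.10) and Plxnd1 (0.16 ± 0.07). In batch 1 they were Epha3 (0.20 ± 0.08), Robo1 (0.13 ± 0.06) and Sema3a (0.11 ± 0.06). In batch 2 with the thalamus marker score as a further covariate Efna2 was at 0.11 ± 0.07 and Plxna2 at 0.19 ± 0.10.

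The promoters of 4 members are printed for the sequence around the start of these genes: Epha3 and Efna5, which passed the test for CRMP1+CRMP2, and Efna2 and Plxna2, which did not pass after adjustment for LDHA/B+CRMP1+STIP1 but had an unadjusted p under 0.05 in both batches. They are RefSeq sequences of build GRCr8 from 250 bases before to 50 bases after the start, 5′ to 3′ on the gene's strand, with each GC box (GGGCGG on either strand) in capitals.
Efna2, chr7:10177670-10177969, minus strand: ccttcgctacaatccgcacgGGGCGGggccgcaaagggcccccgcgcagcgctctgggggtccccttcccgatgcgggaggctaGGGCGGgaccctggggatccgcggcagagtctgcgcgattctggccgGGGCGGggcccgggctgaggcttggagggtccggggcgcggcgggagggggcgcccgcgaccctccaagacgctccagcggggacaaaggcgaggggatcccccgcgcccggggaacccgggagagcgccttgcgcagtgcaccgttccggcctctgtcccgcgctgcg
Plxna2, chr13:108691280-108691579, plus strand: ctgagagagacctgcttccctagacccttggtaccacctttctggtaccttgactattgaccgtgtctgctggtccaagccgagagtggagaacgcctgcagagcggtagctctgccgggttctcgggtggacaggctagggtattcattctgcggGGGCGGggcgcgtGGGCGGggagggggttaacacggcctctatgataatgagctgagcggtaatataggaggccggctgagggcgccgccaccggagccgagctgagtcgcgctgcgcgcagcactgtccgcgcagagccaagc
Epha3, chr11:14920376-14920675, minus strand: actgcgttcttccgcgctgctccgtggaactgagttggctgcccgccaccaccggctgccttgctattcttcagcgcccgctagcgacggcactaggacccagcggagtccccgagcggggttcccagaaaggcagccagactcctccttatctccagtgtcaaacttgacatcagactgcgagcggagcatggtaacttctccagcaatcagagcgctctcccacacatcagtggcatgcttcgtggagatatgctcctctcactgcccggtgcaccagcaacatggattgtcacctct
Efna5, chr9:110042138-110042437, minus strand: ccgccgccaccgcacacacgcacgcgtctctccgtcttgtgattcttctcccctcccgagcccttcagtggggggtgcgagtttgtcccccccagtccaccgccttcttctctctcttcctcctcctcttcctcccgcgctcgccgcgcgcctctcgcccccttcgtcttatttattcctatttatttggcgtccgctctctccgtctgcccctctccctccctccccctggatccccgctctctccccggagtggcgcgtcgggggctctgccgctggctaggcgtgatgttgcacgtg
A GC box was found in 17 of the 32 members with an entry in the RefSeq table (53.1%), beside 33.1% of 33469 promoters of this length. The matches numbered 3 in Efna2 and 2 in Plxna2, and there were 0 in Epha3 and Efna5. Neither a TATA box (TATAAA) nor a cAMP response element (TGACGTCA), searched on both strands, was found in any of the 32, beside 14.2% and 1.83% of all promoters. The median number of CpG dinucleotides was 18.5 in members and 7 over all promoters. The 33469 promoters outnumber the 17494 genes of the count table, so this background was not limited to those genes. Members and background are therefore unlike sets, and the differences between them in these motifs and in CpG number were not tested. Members without an entry were Efnb3, Epha4, Sema3a, Sema3f, Sema4d, Sema5a, Plxna1, Plxna4, Slit1, Slit2, Ntn1, Unc5c and Unc5d.

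**Figure D5:**
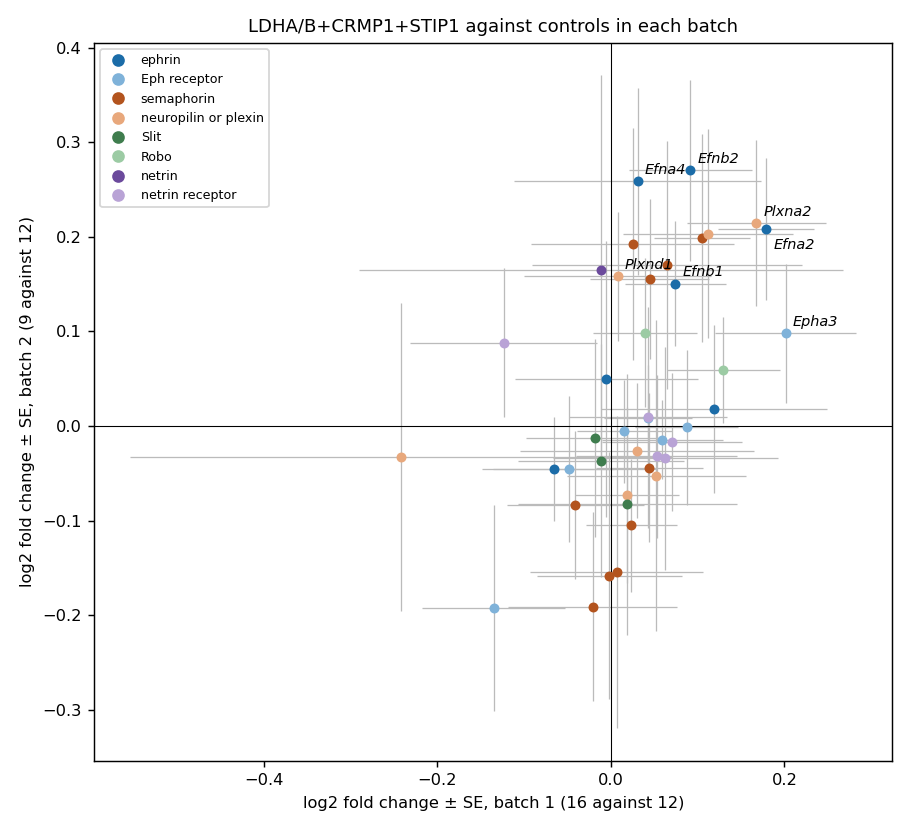
Log2 fold change with its SE for LDHA/B+CRMP1+STIP1 exposure relative to controls, batch 1 on the horizontal and batch 2 on the vertical axis, for the 42 members coloured by family. Named genes had an unadjusted p under 0.05 in at least 1 batch, and Efna2 and Plxna2 had it in both; with litter as a random effect Plxna2 was at 0.104 in batch 1.

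Signs matched between batches in 26 of 42 members (61.9%), beside 58.4% of all genes, with 17 higher and 9 lower in both. Pearson's r of the log2 fold changes was 0.467 over members and 0.168 over all genes, as a description, since the genes of 1 slice share its tissue. The difference between the batches in the effect of exposure was tested as an interaction. No member passed, beside 0.11% of genes, none had an unadjusted p under 0.05, beside 3.05% of genes, and DESeq2 called 0. The largest was Efna4 at 0.23 ± 0.19 among the 5 members of smallest p, with Efnb2 at 0.18 ± 0.12, Unc5b at 0.20 ± 0.15, Sema6a at −0.13 ± 0.09 and Sema3c at −0.16 ± 0.15. Dpysl2 was at −0.15 ± 0.09 and Crmp1 at 0.01 ± 0.07.

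CRMP1+GDA, studied in 3 litters of batch 2, gave no call among the members, beside 0% of 12641 genes. No member had an unadjusted p under 0.05 in edgeR, beside 3.65% of genes, and DESeq2 called 0 members, beside 0% of genes. Unc5b, a netrin receptor, had the smallest p at 0.24 ± 0.13 (adjusted p = 0.999). It ran from 3.58 to 5.08 RPKM with a median of 4.25 in exposed animals and from 2.46 to 4.29 with a median of 3.37 in batch 2 controls. Within batch 2 its estimate was 0.36 ± 0.11 (unadjusted p = 0.00305, adjusted p = 0.956). Dcc (0.24 ± 0.17), Plxna2 (0.14 ± 0.10), Efnb3 (−0.11 ± 0.07) and Epha7 (−0.11 ± 0.07) were next, and Crmp1 (−0.00 ± 0.04) and Dpysl2 (−0.04 ± 0.07) did not pass.

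STIP1+NSE, studied in 4 litters of batch 2, likewise gave no call among the members, beside 0.0474% of 12660 genes. Epha3, at 0.17 ± 0.08, was the 1 member that had an unadjusted p under 0.05, beside 3.19% of genes, and DESeq2 called 0 members. Ntn1 was at −0.62 ± 0.36 against all controls, with a range of 3.86 to 6.51 RPKM in exposed animals and 3.54 to 11 in batch 2 controls. Of the 8 exposed animals, 4 were above the median of the batch 2 controls and 0 lay outside their range. All 24 controls include those of batch 1, in which Ntn1 was higher than in batch 2 controls. Epha5 (0.12 ± 0.06), Plxna4 (0.17 ± 0.09) and Plxna2 (0.15 ± 0.08) did not pass. Crmp1 was at 0.05 ± 0.05 and Dpysl2 at −0.04 ± 0.07.

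The 4 patterns were then compared with each other within batch 2, where all had been processed together. No member differed after adjustment, beside 0% of 12384 genes, and 2 members, Unc5b and Efna5, had an unadjusted p under 0.05, beside 7.15% of genes. DESeq2 called 0 members. Unc5b had medians of 4.25 RPKM in CRMP1+GDA, 3.64 in LDHA/B+CRMP1+STIP1, 3.57 in CRMP1+CRMP2 and 3.48 in STIP1+NSE (unadjusted p = 0.0172, adjusted p = 0.662 in edgeR). The calls made for CRMP1+CRMP2 against controls were therefore not shown to differ from the other patterns.

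No member differed between females (n = 36) and males (n = 35), beside 0.0641% of genes. There were 5 with an unadjusted p under 0.05, beside 4.69% of genes, and DESeq2 called 0. They were Efna2 (0.10 ± 0.04), Sema7a (0.21 ± 0.08) and Efna5 (0.15 ± 0.07), higher in females, and Ephb3 (−0.14 ± 0.06) and Slit3 (−0.18 ± 0.08), lower. Crmp1 was at 0.07 ± 0.03 and Dpysl2 at −0.01 ± 0.04, and neither passed the test.

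Littermates resembled each other in part of the set. The intraclass correlation of log2 levels within litters, after removal of group and batch means, had a median of 0.26 over members and 0.265 over all genes. It was highest for Plxna3 (0.691), Plxnb1 (0.57) and Slit1 (0.555), and lowest for Efna4 (−0.0742) and Unc5b (−0.065). Efna2 and Slit2 were at 0.47 and 0.456. Littermates are therefore not fully independent in these genes, and p-values that treat each pup as a replicate take no account of this.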

How the data were processed

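Poly-A RNA from 71 individual brain slices was sequenced, and per the study's methods the 2 batches were processed and sequenced separately. The authors aligned reads to rat build rn7 with STAR 2.5.4b and deposited raw counts per gene from featureCounts, with each gene's exon length (another deposited column), used here for RPKM. Among counts from 1 to 9, 74.5% were even, so both reads of a pair may have been counted and the printed counts and totals may be up to 2 times the number of fragments. Batch was read from the sample titles.

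Main tests were edgeR 4.0.16 quasi-likelihood fits with TMM factors (R 4.3.3), fitted on all genes that passed the filter (above 1 CPM in at least 2 animals for single patterns, at least 1 CPM in 8 animals otherwise), with Benjamini-Hochberg adjustment over all of them and a threshold of 0.1. Exposure against all controls included the first surrogate variable (sva 3.50.0). Tests within a batch, between control batches and of the interaction included sex. The comparison of sexes included group and batch. Fits were run on simulated data with log2 changes of 1, up or down, planted in 200 genes. That simulation held no litter, batch or tissue structure, so it did not test the fits under those conditions or at smaller changes. Alternatives were DESeq2 1.42.0, other scalings and filters, halved counts, other covariates, marker scores, litter as a random effect (limma 3.58.1), litter sums and leaving out each litter. Unscaled and upper-quartile factors and the fits without low-thalamus (under 400 CPM) or pineal (over 10 CPM) slices, or with the thalamus score within batch 2, were added after seeing the data.

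The members and gene lists were chosen with earlier results of these data known. Values are given for members with an adjusted p under 0.1 (at most the 8 smallest p per direction, or the 5 smallest p where fewer than 5 passed), for Crmp1 and Dpysl2, and for at most 5 other pathway genes that passed, and further members or promoters named were chosen after their values were seen. No 2 libraries agreed within sampling noise (lowest chi-square per gene 5.52). The filter left 29 of 37 other guidance ligands and receptors and 42 transducers. Coordinates of promoters are in build GRCr8 and are not comparable with rn7.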

Additional observations from a re-analysis of the deposited data

Results flagged for a closer look

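A level of a member far from the rest of its group was marked in 13 of 168 sets of 6 to 9 animals of batch 2 (Dixon's criterion, which chance meets in about 1 of 20 sets, and animals of 1 slice share their tissue across genes).

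In CRMP1+CRMP2 a male of litter 9_6 was highest in Plxna3 at 70.5 RPKM (next 52.2) and in Plxna4 at 45.2 RPKM (next 25.1). This slice held 267 CPM of summed thalamus markers. The other male of that litter was highest in Unc5c at 9.48 RPKM (next 6.71).

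In CRMP1+GDA 1 animal of litter 9_8 was highest in 5 members: Ephb3 at 9.78 RPKM, Sema5a at 14.2, Sema6a at 38.1, Sema6d at 29 and Unc5c at 7.59. Its littermate was highest in Sema3f at 21.8 RPKM (next 16.5).

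In STIP1+NSE a female of litter 9_2 was highest in Sema7a at 83.4 RPKM (next 57.8) and Plxnd1 at 42 RPKM (next 26.7), and lowest in Ephb1 at 20.6 RPKM (next 25.8). This slice was the 1 of its group under 400 CPM of thalamus markers, at 255 CPM. In LDHA/B+CRMP1+STIP1 of batch 2, Ntn1 was highest at 15 RPKM (next 9.31) in an animal of litter 9_19. The part of tissue content in these values was not tested.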

How the results depend on the processing

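For CRMP1+CRMP2 the number of members called moved from 6 to 0 with litter as a random effect, with counts summed per litter, without batch 2 slices low in thalamus markers, and in batch 2 alone with sex and the thalamus score. It was 1 in batch 2 alone with sex (2.38% beside 1.01% of genes). It was 2 (4.76%) with all 71 samples in one fit, beside 6.2% of genes, or without slices with pineal markers, beside 2.54%. Leaving out 1 litter at a time gave 0 (litter 9_6, beside 0.324% of genes) to 12 (litter 9_16, 28.6% beside 22.8% of genes). It gave 2 without litter 9_11 (4.76% beside 6.31% of genes). In all, 41 to 2889 genes were called, beside 1445 with every litter. For LDHA/B+CRMP1+STIP1 DESeq2 called 1 member (2.38% beside 0.118% of genes), and leaving out 1 litter gave 0 to 1. The 1 was Efna2, at 0.21 without litter 9_9 and 0.20 without litter 9_14, beside 0.347% and 0.134% of genes. Between control batches the count moved from 26 to 15 with the thalamus score, 14 with the choroid plexus score and 17 with litter sums, and was 22 to 27 with 1 litter left out. The causes of these moves were not tested. No member was called in the other comparisons under any alternative run.

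Signs turned in 57 of 1335 alternative values of named genes, given as log2 fold changes with the setting in parentheses. For all exposed animals Dpysl2 was −0.00149 (median-ratio factors), −0.00133 (DESeq2), −0.00191 (no filter), −0.00317 (litter random effect), −0.00378 (halved counts), −0.0107 (no covariate), −0.00966 (litter sums), −0.0422 (all 71 in one fit), −0.00113 (without pineal slices), −0.00264 (7 principal components) and −0.0918 (batch 2 alone), and Crmp1 was −0.0184 (no covariate), −0.00178 (thalamus score), −0.0142 (choroid plexus score), −0.000242 (litter sums), −0.00821 (all 71 in one fit), −0.00901 (without low-thalamus slices), −0.00201 (7 principal components) and −0.00483 (batch 2 alone). For CRMP1+CRMP2 with 1 litter left out Crmp1 ran from −0.094 to 0.0215. For LDHA/B+CRMP1+STIP1 Crmp1 was −0.0143 (choroid plexus score), −0.00958 (without low-thalamus slices) and −0.0439 (batch 2 with thalamus score), Epha3 was −0.0306 (batch 2 with thalamus score), Ephb3 was 0.0121 (batch 2 with thalamus score), and Dpysl2 was −0.0414 (batch 2 with thalamus score). With 1 litter left out Crmp1 ran from −0.0156 to 0.0174. For CRMP1+GDA Crmp1 was 0.0158 (litter random effect), 0.00193 (thalamus score), 0.00402 (upper-quartile factors) and 0.00837 (without pineal slices), Efnb3 was 0.0739 (no covariate), and Plxna2 was −0.29 (no covariate). With 1 litter left out Dpysl2 ran from −0.12 to 0.0429, Plxna2 ran from −0.0799 to 0.25, Dcc ran from −0.16 to 0.41 and Crmp1 ran from −0.0571 to 0.0286. For STIP1+NSE Plxna4 was −0.18 (no covariate), Plxna2 was −0.23 (no covariate), Crmp1 was −0.0661 (no covariate) and −0.00876 (batch 2 with thalamus score), and Dpysl2 was 0.0154 (thalamus score) and 0.0020 (without low-thalamus slices). With 1 litter left out Crmp1 ran from −0.0158 to 0.10 and Dpysl2 ran from −0.0965 to 0.0547. In the interaction Crmp1 was −0.00107 (litter random effect). Between control batches Ephb3 was −0.22 (thalamus score), Slit2 was −0.31 (thalamus score), Slit3 was −0.40 (thalamus score), Sema5a was −0.82 (thalamus score), Sema7a was 0.97 (thalamus score), Plxna4 was 0.0519 (thalamus score) and 0.12 (choroid plexus score), and Crmp1 was 0.32 (thalamus score). With 1 litter left out Dpysl2 ran from −0.0358 to 0.11. Of the other alternative values, 1127 kept sign and side of the threshold, 147 lost and 4 gained a call.

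No paired analysis was possible because the labels give no replicate numbers that join animals across groups, and no litter spans groups. The lowest count of a member was 63, and there were 3 to 9 litters per pattern; the part of either in the number of calls was not tested.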
